A study of Apostichopus japonicus with 9 samples.

Results

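Mild hypoxia was compared with normoxic conditions in the miRNAs of the respiratory tree, the gas-exchanging organ, of the sea cucumber *Apostichopus japonicus*. The comparison took the 3 small RNA libraries of the DO4 group (dissolved oxygen of 4 mg/L, lowered with nitrogen) and the 3 of the DO8 group (8 mg/L, the control). The exposure lasted 3 days in both groups. Every library was made from pooled RNA of the respiratory trees of 3 animals collected on the coast, so a library is a pool and the spread between libraries is the spread between pools, not between animals. A further group at 2 mg/L (DO2, 3 libraries) was part of the study and entered here only through the fit, where it shares in the estimate of the spread and adds 6 entries to those tested. An entry is 1 mature miRNA name with its sequence, and an entry is called listed in a library when its deposited value there is above 0. The comparison covers the entries listed in all 3 libraries of the DO4 group or in all 3 of the DO8 group. These were 84 of the 475 entries of the series, 80 known miRNAs and 4 predicted by the authors. They held 99.99% of all values of the 6 libraries. Of the 84 entries, 70 were listed in all 6 libraries, 6 were complete in the DO4 group only and 8 in the DO8 group only.

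A miRNA is a short RNA that guides an Argonaute protein to messenger RNAs, mostly through its seed, the bases that follow the first base at its 5′ end, and lowers their translation or stability. miRNAs that share a seed form a family with overlapping targets, and longer and shorter forms of 1 miRNA arise when the precursor is cut or the 3′ end is trimmed at other positions. In mammals miR-210 is known for its induction by the hypoxia-inducible factor, while in echinoderms many of the abundant miRNAs belong to families shared by all bilaterian animals or found only in echinoderms and their close relatives.

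The sequences below carry the results: the abundant entries whose stability or limits are given, the forms of miR-71 that differ in length or in 1 base, and low entries whose groups did not overlap. They are read 5′ to 3′ from the deposited files, which write T for U, and the capitals mark the seed, bases 2 to 8. The first is the most abundant entry of every library:
Aja-miR-10: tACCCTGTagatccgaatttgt
The let-7 entries share 1 seed:
Aja-let-7-5p: tGAGGTAGtaggttatatagtt
Aja-let-7a-5p: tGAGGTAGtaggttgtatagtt
Aja-let-7a: tGAGGTAGtaggttatacagtt
Aja-miR-125 and the shortened entry named Aja-miR-125-5p, which starts 3 bases further in and so has another seed:
Aja-miR-125: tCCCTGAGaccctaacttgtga
Aja-miR-125-5p: cTGAGACCctaacttgtga
The most abundant entries of the miR-92 seed, with 1 short form:
Aja-miR-92a: tATTGCACttgtcccggcctat
Aja-miR-92b-1: tATTGCACttgacccggcctgc
Aja-miR-92-3p: tATTGCACttgtcccggccggt
Aja-miR-92a-1: tATTGCACttgtcccggcctta
Aja-miR-92d-3p: tATTGCACttgtcccggccg
The 3 entries of miR-71:
Aja-miR-71-5p: tGAAAGACatgggtagtgaga
Aja-miR-71 (19 nt): tGAAAGACatgggtagtga
Aja-miR-71 (21 nt): tGAAAGACatgtgtagtgaga
The long and short entries of miR-1:
Aja-miR-1a-3p: tGGAATGTaaagaagtatgtgt
Aja-miR-1: tGGAATGTaaagaagtat
The entries of miR-184 and an abundant entry of an echinoderm family:
Aja-miR-184-3p: tGGACGGAgaactgataagg
Aja-miR-184: tGGACGGAgaactgataagt
Aja-miR-2011-3p: cCAAGGTGtgctagtgatgaca
Further low entries that did not overlap between the groups, the last of them predicted by the authors:
Aja-miR-153-3p: tTGCATAGtcacaaaagtgatt
Aja-miR-153-1-p5: tCTCTCTCtctctgacag
The third predicted miRNA: gATCAAAGgttgagggctgaaa

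The depth of the groups overlapped. Reads worked out from the steps of the values came to 4795819 to 6024869 per library in the DO4 group and 4681523 to 5720697 in the DO8 group (exact permutation test, two-sided, p = 0.9, n = 3 and 3, where 0.1 is the smallest p the design allows). The miRNA read counts that the study printed are higher in each of these libraries, and their ranges overlap between the groups as well. What makes the printed counts differ from those worked out here was not tested. The value of 1 read was larger in every DO4 library (0.633 to 0.682) than in every DO8 library (0.556 to 0.598; exact p = 0.1). The totals of values overlapped, with 3269840 to 3984844 in the DO4 group and 2718921 to 3420135 in the DO8 group (exact p = 0.3). DO4_3 stood apart in its listing: 62 known entries outside the 84 were listed there, against 7 to 19 in the other 5 libraries, and their values summed to 572, or 0.017% of that library. DO4_1 and DO4_3 stood apart from DO4_2 in their shorter entries, as described with the entry lengths.

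No miRNA passed the test between mild hypoxia and normoxic conditions. limma, fitted to log2(value + 1) over all 9 libraries, called 0 of the 84 entries at an adjusted p under 0.05 (background: 0% of the 90 entries tested, with 1.11% at an unadjusted p under 0.05). The smallest adjusted p was 0.489 for Aja-miR-153-1-p5, the single entry at an unadjusted p under 0.05. The next smallest was 0.802. The fitted difference, log2 of DO4 minus log2 of DO8, was positive for 40 entries and negative for 44, with a median of -0.06 (0.0 over all 90 tested). Among the 70 entries listed in all 6 libraries it ranged from -0.95 (Aja-miR-2006-3p) to 1.05 (Aja-miR-92a-2). The spread that these p values are set against is that of pools, and whether pools of a group shared a tank was not given in the sources used here.

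The fit also gives limits on the size of a change, as the 95% interval of each difference. These limits hold on the deposited scale, where the value of 1 read was larger in every DO4 library. The interval covered 0 for 83 of the 84 entries. It lay wholly between -1 and 1, that is within a doubling or a halving, for 16 entries, and between -2 and 2 for 52. For the remaining 32 entries, a difference of 4-fold in at least 1 direction lay inside the interval. The 16 were Aja-miR-10, Aja-miR-125, Aja-miR-71-5p, Aja-miR-200-3p, Aja-miR-2011-3p, Aja-miR-92b-1, Aja-miR-2012, Aja-miR-2004-3p, Aja-miR-133-3p, Aja-let-7b-3p, Aja-miR-29b-3p, Aja-miR-22-3p, Aja-miR-29a-3p, Aja-miR-2013-3p, Aja-miR-92 and Aja-miR-9-3p. All of them had a mean value of at least 270.3 over the 6 libraries. The reach of the interval to either side of the difference grew as entries became rarer. Its median was 0.63 for the 17 entries with a mean of at least 10000, 0.69 for the 11 between 1000 and 10000, and 0.98 for the 19 between 100 and 1000. It was 1.72 for the 20 entries between 10 and 100 and 1.97 for the 17 under 10, and no entry under 100 had its interval between -1 and 1. These intervals also carry the spread of the DO2 libraries, which share in the fit. The median SD of log2 values was 0.44 (DO4) and 0.25 (DO8) for means of at least 10000, and 0.57 and 0.36 between 10 and 100. Aja-miR-133a-5p had SDs of 0.24 (DO4) and 0.30 (DO8), yet an interval of -3.90 to 3.30.

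**Figure D1:**
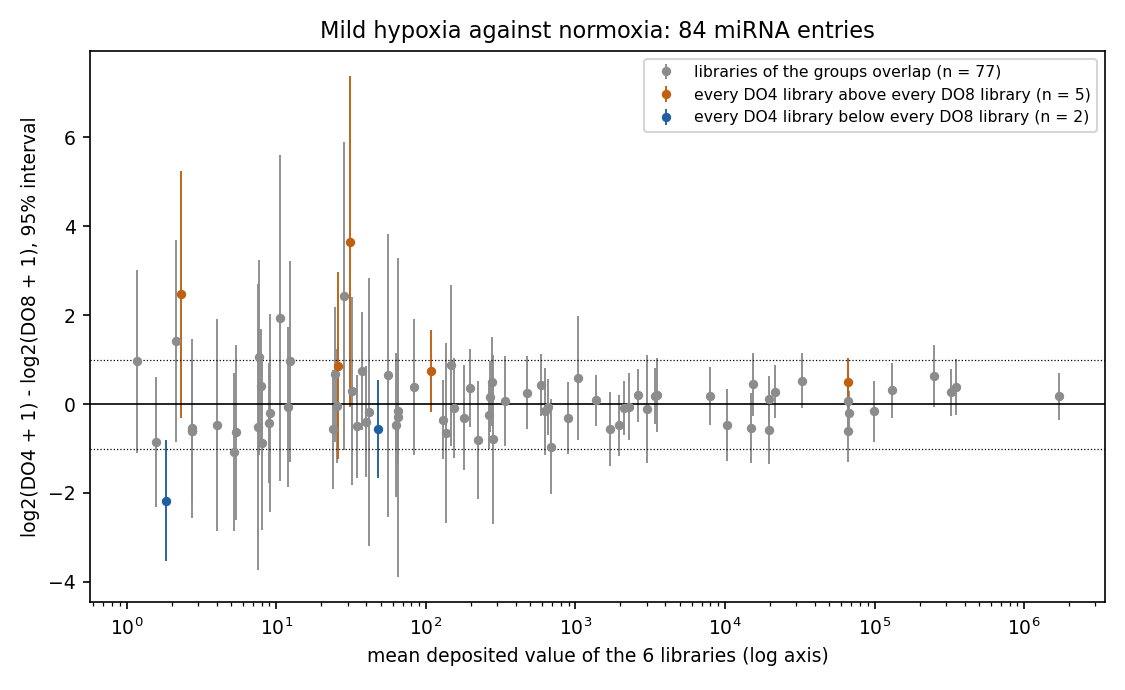
Difference between the DO4 and DO8 groups on the log2(value + 1) scale for the 84 entries, each point with its 95% interval from limma, against the mean value of the 6 libraries on a log axis, with colours for the 5 entries higher and the 2 lower in every DO4 library. The intervals narrow towards abundant entries, 16 lie wholly between the dotted lines at -1 and 1, and 83 of 84 cover 0.

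The entry that dominated every library, Aja-miR-10, whose gene lies in the Hox clusters of many animals, had values of 2038474, 1632316 and 1698579 in the DO4 libraries and 1950688, 1704707 and 1188885 in the DO8 libraries. These ranges overlapped, and the lowest value was that of DO8_3. The log2 difference was 0.17 (SE 0.23, interval -0.35 to 0.69, limma adjusted p = 0.815), which bounds the change on the deposited scale between 0.784-fold and 1.62-fold. Aja-miR-10 changed the sign of its difference in 3 of 19 alternative settings. Its share of a library's total, which does not depend on the scaling of the values, was 51.2%, 49.9% and 50.4% in the DO4 group and 57.0%, 56.1% and 43.7% in the DO8 group. The shares of the DO4 libraries thus lay close together (50.5% ± 0.62, SD, n = 3) and inside the range of the DO8 libraries (52.3% ± 7.43, n = 3; exact permutation test p = 0.9).

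Aja-miR-125, related to the developmental timing miRNA lin-4 of *Caenorhabditis elegans*, was at 389714, 273134 and 403007 in the DO4 group and at 306856, 278240 and 291164 in the DO8 group. DO4_2 fell below all DO8 libraries while DO4_1 and DO4_3 lay above them. The log2 difference was 0.26 (SE 0.23, interval -0.26 to 0.79). Aja-let-7-5p, of the family that times development in many animals, was at 485041, 452437 and 270960 against 358506, 244514 and 305845. Here DO4_1 and DO4_2 were the high libraries, and the interval (-0.24 to 1.00) touched a doubling at its upper end. Aja-miR-71-5p, of a family found in invertebrates and lost in vertebrates and known for its part in lifespan and stress in *C. elegans*, was at 181244, 162651 and 96700 against 118225, 101207 and 126039. The same pair, DO4_1 and DO4_2, was high, and DO4_3 was lower than every DO8 library.

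Aja-miR-92a, whose family is shared by most bilaterians and forms part of an oncogenic cluster in mammals, had the largest positive difference among the 10 most abundant entries, 0.63 (SE 0.31, interval -0.07 to 1.33, limma adjusted p = 0.802). Its values were 399802, 195687 and 328904 in the DO4 group and 159098, 180079 and 243038 in the DO8 group. DO4_1 and DO4_3 exceeded all DO8 libraries, whereas DO4_2 lay among them. Aja-miR-184-3p, a conserved miRNA studied in the fly germ line and early embryo, had the largest negative difference of the 10, -0.61 (interval -1.31 to 0.10). It was at 34717, 81594 and 47742 in the DO4 group and at 95179, 68192 and 73397 in the DO8 group. The same libraries deviated, now downwards: DO4_1 and DO4_3 were below all DO8 libraries and DO4_2 was between them.

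Aja-miR-200-3p, of a family that keeps the epithelial state in vertebrates, was at 55859, 122657 and 106580 against 78964, 106815 and 121729, so DO4_1 lay below the DO8 range and DO4_2 just above it. Its interval was -0.84 to 0.51. Aja-miR-92b-1 (78975, 56462 and 70075 against 59899, 64952 and 68698) had DO4 libraries on both sides of the DO8 range, with an interval of -0.55 to 0.70. Aja-miR-2011-3p, of a family known from echinoderms and hemichordates, was held within the narrowest interval of all entries, -0.70 to 0.30. Its values were 47248, 62296 and 82216 in the DO4 group and 71027, 70492 and 73018 in the DO8 group, so the DO8 libraries nearly coincided and the DO4 libraries fell on both sides of them. The tightest bound on the change in either direction was that of Aja-miR-2004-3p, another echinoderm and hemichordate miRNA, at no more than 1.55-fold (interval -0.42 to 0.64). It had values of 22161, 22906 and 15933 against 22669, 16337 and 17439.

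The 10 most abundant entries took 94.9% ± 0.431 (SD, n = 3) of the values in the DO4 group and 94.5% ± 0.678 in the DO8 group. Each of the 10 shares overlapped, and the smallest adjusted p over the 10 shares was 0.75 (exact permutation tests, n = 3 and 3). With 3 libraries a group these tests cannot go below 0.1 before adjustment, so they could not pass 0.05 whatever the shares. With Aja-miR-10 taken out of the total, the share of Aja-miR-1a-3p alone did not overlap (4.41% ± 0.293 against 3.81% ± 0.252, n = 3 and 3, exact p = 0.1). Leaving out 1 library at a time, the number of these 10 shares that did not overlap was 0 to 3, with 3 without DO8_3 and 2 without DO4_2 or without DO4_3.

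Entries were also summed by seed, since a sum does not depend on how reads were divided between near-identical entries. By their sums, 60 seed families were listed in all 3 libraries of the DO4 or of the DO8 group, and 14 of them held more than 1 of the 84. The family of Aja-miR-2478 is counted among the 60, though none of its entries is among the 84. limma on the summed values called 0 of the 67 families tested (0% called; 1 at an unadjusted p under 0.05, smallest adjusted p = 0.338). The 10 largest families held 97.0% of all values, their differences ran from -0.61 (miR-184) to 0.51 (miR-92), and 6 of the 10 had an interval between -1 and 1. The 11 entries of the miR-92 seed summed to 434091 ± 130884 (SD, n = 3) in the DO4 group and 298588 ± 55670 in the DO8 group (log2 difference 0.51, interval -0.16 to 1.17). As with Aja-miR-92a, which makes up most of the sum, DO4_2 was the low library of its group, at 290954 against 547665 and 463653. The entries named Aja-miR-92 and Aja-miR-92b have other seeds and are not in this sum.

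**Figure D2:**
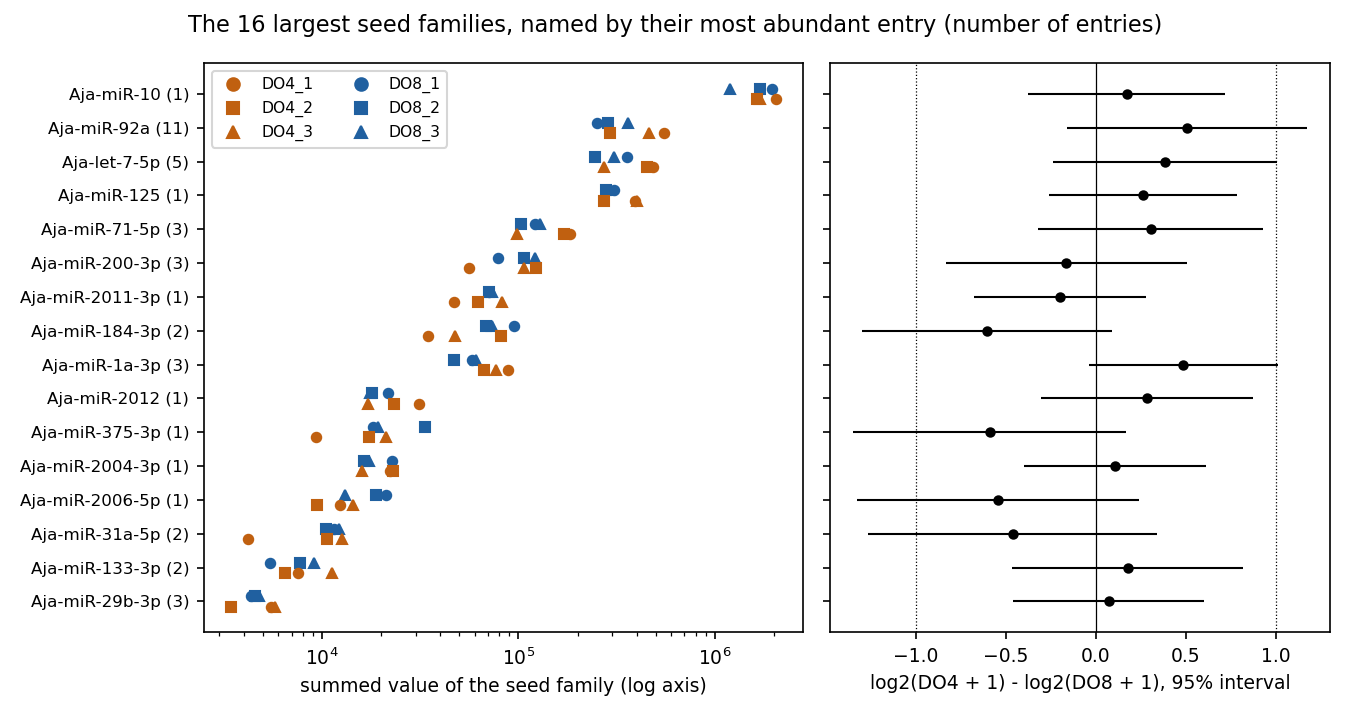
Left, summed values of the 16 largest seed families in each DO4 and DO8 library on a log axis, named by their most abundant entry with the number of entries in parentheses; right, the log2 difference of each family with its 95% interval from limma. On the deposited scale the groups overlap in every family shown except that of Aja-miR-1a-3p (difference 0.49), and every interval covers 0.

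The 2 groups did not overlap for 7 of the 84 entries, which is 7.78% of the 90 entries tested (5.56% higher and 2.22% lower in the DO4 group). With 3 libraries against 3, groups that do not differ separate in one direction or the other with a probability of 0.1. A share of this size therefore lends no support to a difference. Of these 7, 3 were listed in all libraries of one group and at 0 in all of the other, so the listing rule itself sets them apart and their separation is a description only. Among the 70 entries listed in all 6 libraries, 4 (5.71%) did not overlap: Aja-miR-1a-3p, Aja-let-7a-5p and Aja-miR-71 (21 nt), all higher in the DO4 group, and Aja-miR-153-3p, lower there. Aja-miR-1a-3p, the muscle miRNA of most animals, was at 88375, 66733 and 77038 in the DO4 group and at 58034, 46931 and 60661 in the DO8 group. As a share of its library's total, which does not depend on the scaling, it overlapped. The shares were 2.22%, 2.04% and 2.29% in the DO4 group and 1.70%, 1.54% and 2.23% in the DO8 group. Only with Aja-miR-10 taken out of the total did they not overlap. DO4_2 was the lowest DO4 library and lay closest to the DO8 libraries. The log2 difference was 0.49 (SE 0.24, interval -0.05 to 1.03, limma adjusted p = 0.802). Aja-let-7a-5p, which differs from Aja-let-7-5p in 1 base outside the seed, was at 176, 110 and 122 against 90.9, 80.3 and 68.7, with the DO4_1 library well above the rest (0.74, SE 0.41, interval -0.19 to 1.66). Aja-let-7-5p itself, far more abundant, overlapped, and so did the third entry, Aja-let-7a (44.0, 35.5 and 26.9 against 34.1, 25.0 and 25.8).

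Aja-miR-71 (21 nt), which differs from Aja-miR-71-5p in 1 base outside the seed, was at 40.3, 30.7 and 29.8 in the DO4 group and at 19.1, 22.2 and 13.4 in the DO8 group. All DO4 libraries were higher, yet the fit over 9 libraries gave a wide interval, -1.24 to 2.97 around 0.86. The remaining higher entries were complete in the DO4 group and listed at 0 in every DO8 library, where 3 reads would give a value of 1.67 to 1.79. The third predicted miRNA had 3.97, 4.09 and 5.70. Aja-miR-122-5p, the main miRNA of the vertebrate liver, had 1.32, 3.75 and 181, so its DO4 level rests on DO4_3, the library that also listed 62 further known entries. Of the list of vertebrate blood and liver families, 12 entries were listed in DO4_3 against 1 and 2 in the other DO4 libraries and 0, 1 and 2 in the DO8 libraries, with summed values of 259 in DO4_3 and 0 to 12.2 in the other 5. The part of these entries in the value of Aja-miR-122-5p was not tested.

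Both entries that were lower throughout the DO4 group carry the name of miR-153, a miRNA of the nervous system in other animals. Aja-miR-153-3p was at 41.0, 31.4 and 44.3 in the DO4 group and at 56.8, 60.0 and 54.6 in the DO8 group (-0.56, SE 0.49, interval -1.66 to 0.54). The entry Aja-miR-153-1-p5 was listed at 0 in all 3 DO4 libraries, where 3 reads would give 1.90 to 2.05, and at 3.59, 5.0 and 2.32 in the DO8 libraries. Its printed sequence is largely a CT repeat and shares neither seed nor length with Aja-miR-153-3p. The fitted difference, which depends on the 1 added to each value, was -2.17 (SE 0.61, interval -3.54 to -0.81, limma adjusted p = 0.489). Without DO2_1, the shallowest library of the series, the fit called Aja-miR-153-1-p5 (limma adjusted p = 0.0361) and the third predicted miRNA (limma adjusted p = 0.0209). Without any other single library neither was called. Both are among the 84 only through the group in which they are listed, so these p values lend no support to a difference. With 0.01 added to the values in place of 1, Aja-miR-153-1-p5 had an adjusted p of 0.000539 in limma, and over all alternatives its adjusted p ran from 0.000539 to 1.0.

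**Figure D3:**
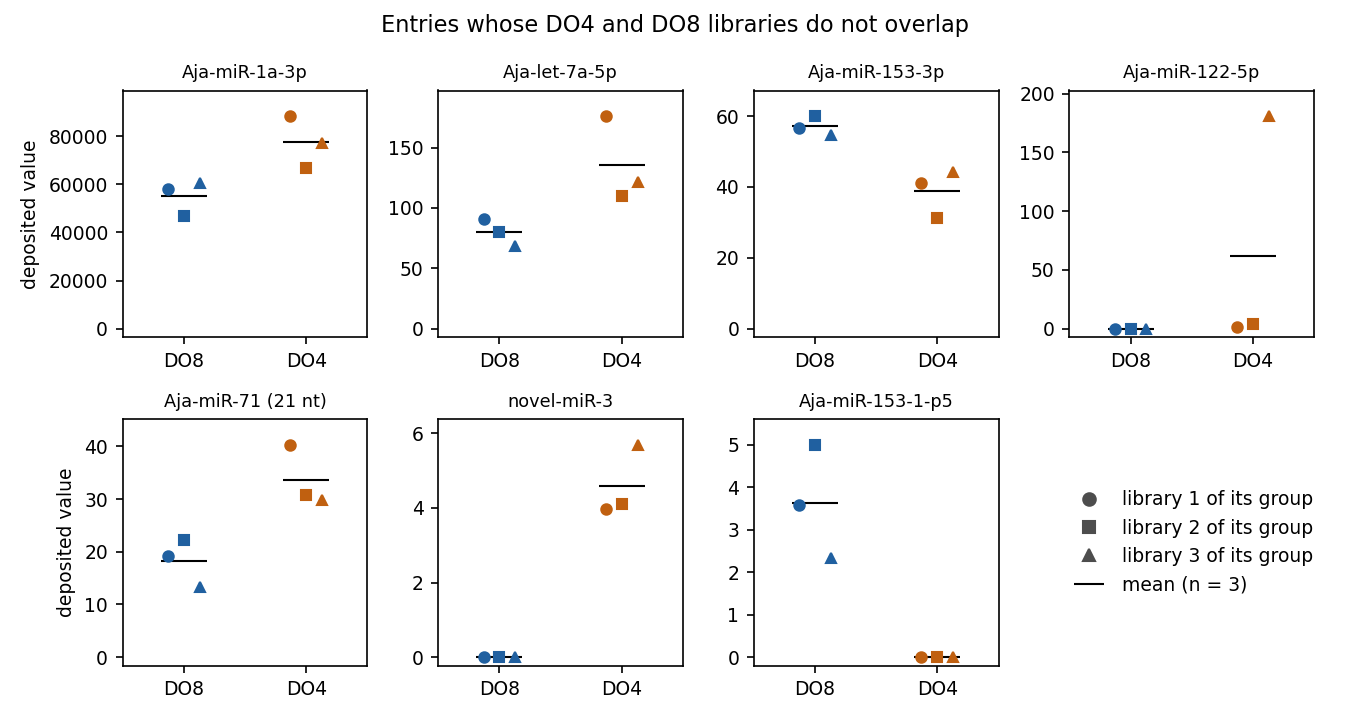
Deposited values of the 7 entries whose DO4 and DO8 libraries do not overlap, 1 symbol per library, with a line at the mean of each group (n = 3). The miR-153 panels have every DO4 library lower and the other 5 panels have them higher, with DO4_3 at 181 as the high point of Aja-miR-122-5p.

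The libraries of the DO4 group were further apart than those of the DO8 group. The SD of log2 values between libraries was larger in the DO4 group for 66 of the 84 entries, with a median of 0.53 against 0.32. Among the 47 entries with a mean of at least 100 it was larger for 39, with a median of 0.47 against 0.25. The median absolute log2 distance between 2 libraries was 0.532 to 0.673 within the DO4 group, 0.230 to 0.361 within the DO8 group and 0.299 to 0.783 between the groups. The shortest distance across the groups was that of DO4_2 to DO8_1, 0.299, which is shorter than any distance within the DO4 group. DO4_1 lay above the range of the 3 DO8 libraries for 30 entries and below it for 35, DO4_2 for 35 and 16, and DO4_3 for 26 and 31.

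These deviations went with the length of the entry. For the 27 entries of 18 to 20 nt, the median log2 distance from the DO8 mean was -1.01 in DO4_1 and -0.70 in DO4_3, with 22 of 27 entries below the mean in each, while DO4_2 was at 0.54 with 4 of 27 below. For the 35 entries of 22 nt the medians were 0.31 in DO4_1, 0.05 in DO4_2 and 0.25 in DO4_3. The 16 entries of 21 nt lay between, at 0.20, 0.39 and -0.26. Entries of 18 to 20 nt took 0.955%, 2.80% and 1.5% of the values in the DO4 libraries and 2.95%, 2.39% and 2.88% in the DO8 libraries. DO4_2 thus fell inside the DO8 range and the other pair below it (exact permutation test, n = 3 and 3, p = 0.2). Only 5 of the 27 short entries had a positive log2 difference and their median was -0.50, whereas 23 of the 35 entries of 22 nt were positive with a median of 0.18. What set the short entries apart in these libraries was not tested.

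**Figure D4:**
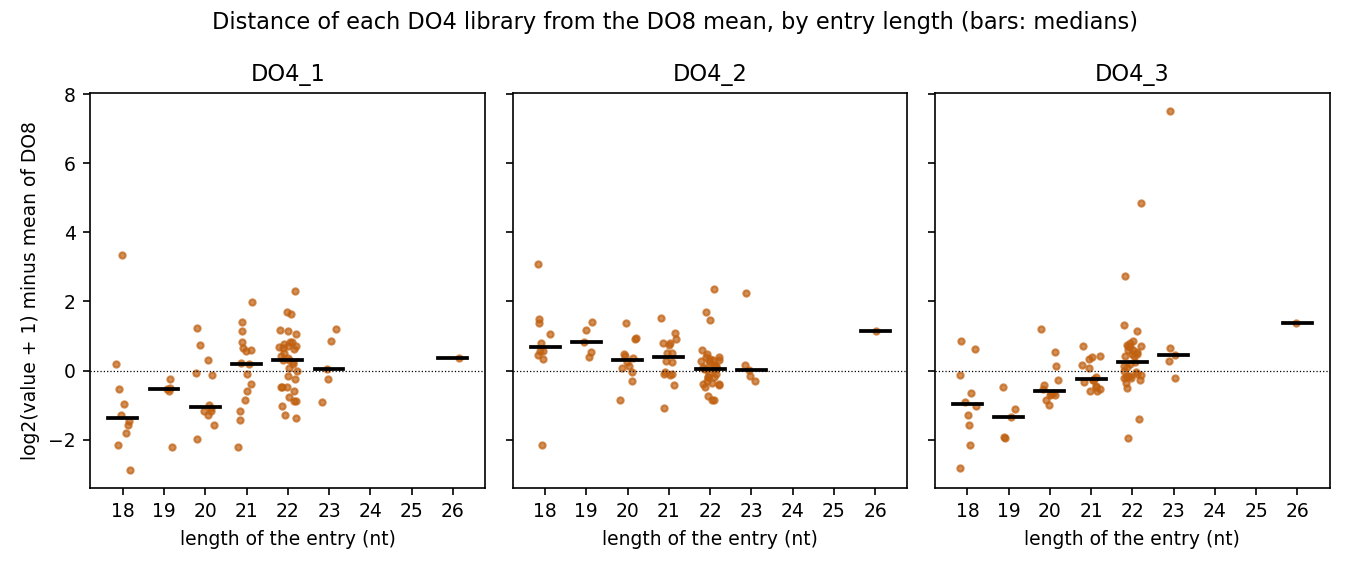
Distance of log2(value + 1) in each DO4 library from the mean of the DO8 group, 1 point per entry for the 84 entries, by the length of the entry in nt, with bars at the median of each length. Entries of 18 to 20 nt lie low in DO4_1 (median -1.01) and DO4_3 (median -0.70) and high in DO4_2 (median 0.54).

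The same split appeared between the forms of 1 miRNA within a library, a ratio that does not depend on scaling or depth. Ratios of a shorter to a longer form could be formed for 10 pairs. All the short forms except Aja-miR-124-3p are among the entries of 18 to 20 nt described above. The ratios thus rest in part on the same values and are not a separate observation. DO4_2 had the highest ratio of the DO4 group in 9 of the 10, and both other DO4 libraries were below every DO8 library in 8 of the 10. Aja-miR-71 (19 nt) relative to Aja-miR-71-5p, which it matches over its whole length, had log2 ratios of -6.69, -4.53 and -6.30 in the DO4 group and -5.30, -5.45 and -5.52 in the DO8 group. The DO8 libraries agreed within 0.23 units and the DO4 libraries fell on both sides of them. Aja-miR-125-5p relative to Aja-miR-125 gave -13.04, -11.46 and -13.05 against -12.03, -12.22 and -12.08, with the same libraries high and low. For Aja-miR-133, the short form of the muscle miRNA Aja-miR-133-3p, the ratios were -9.11, -7.87 and -9.34 against -7.91, -8.06 and -8.02.

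**Figure D5:**
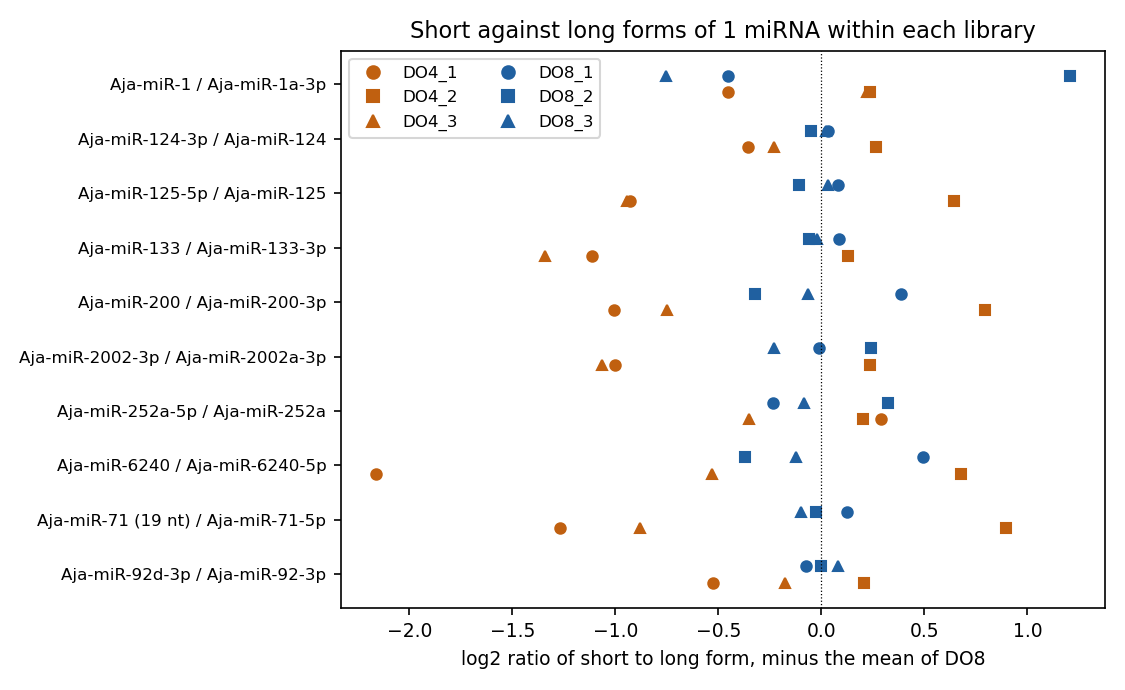
Log2 ratio of the short to the long form of 1 miRNA within each DO4 and DO8 library, minus the mean of the DO8 libraries, 1 point per library, for the 10 short-form ratios. DO4_2 lies above DO4_1 and DO4_3 in 9 of the 10, and both of these lie below every DO8 library in 8 of the 10.

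Ratios between the arms of 1 hairpin, the 5p and 3p strands, could be formed for 4 pairs. Only that of Aja-miR-133a-5p to Aja-miR-133-3p did not overlap, at -7.18, -6.90 and -7.33 in the DO4 group and -6.58, -6.56 and -6.82 in the DO8 group. All DO4 libraries were lower, and with 14 ratios compared the exact permutation test gave p = 0.1 (n = 3 and 3) and an adjusted p of 0.764. The arms of miR-9, a neural miRNA in other animals, stood at -0.59, -1.40 and -1.07 against -1.35, -1.18 and -1.51, and those of miR-2008 differed by 0.00 between the group means.

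Since DO4_2 was seen to differ from the other DO4 libraries in these same values, the counts are also given without it, as a description only. DO4_2 was the library with high short entries, so the low short entries and the added separation follow in part from leaving it out. They lend no support to a difference. limma then placed 11 of the 84 entries at an unadjusted p under 0.05 (12.2% of the 90 tested in that fit) and 0 at an adjusted p under 0.05 (smallest 0.226). The 8 lower entries were all of 18 to 20 nt, among them Aja-miR-184-3p (-0.94), Aja-miR-71 (19 nt) (-0.87), Aja-miR-34 (-1.42) and Aja-miR-2002-3p (-1.77). The 3 higher entries all had the miR-92 seed: Aja-miR-92a (0.93), Aja-miR-92-3p (0.77) and Aja-miR-92a-1 (0.76). Without DO4_2, 34 entries (37.8% of the 90 tested) and 11 of the 14 ratios did not overlap. Leaving out any 1 of the 6 libraries raised this count, since fewer libraries have to be separated, and the number of entries was 23 without DO4_3, 8 without DO4_1, and 14, 11 and 20 without DO8_1, DO8_2 and DO8_3.

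Described by role, no list of families held an entry that passed the test, and most lists spread to both sides of 0. The sign of several medians depended on DO4_1: without it the echinoderm and hemichordate families were at 0.07, the fragment-like entries at 0.02, the epithelial, ciliary and sensory entries at 0.08, the hypoxia-regulated families at 0.20 and the skin ulceration families at 0.03. The median of the muscle entries turned to -0.05 without DO4_3, to -0.03 without DO8_1 or with equal totals, and to -0.10 with equal totals without Aja-miR-10, and that of the fragment-like entries to 0.06 without DO4_3. With equal totals without Aja-miR-10, where the median of all 84 moved to -0.32, the entries of miR-10, let-7 and miR-125 stood at -0.01. The entries of miR-10, of let-7 and of miR-125, whose genes lie close together in many animals, had 6 positive and 1 negative differences among 7 entries, with a median of 0.26 (-0.06 over all 84). The 11 entries named for miR-92 and its relatives were positive in 7 cases, from -0.88 (Aja-miR-92b) to 1.05 (Aja-miR-92a-2), with a median of 0.36. The miR-71 entries had a median of 0.31, with the 19 nt form at -0.11 and the 21 nt form at 0.86. The 5 muscle entries of miR-1 and miR-133 were positive in 3 cases with a median of 0.18, from Aja-miR-133 at -0.57 to Aja-miR-1a-3p at 0.49. The 18 nt form Aja-miR-1 was at 7.28, 8.86 and 10.1 against 4.78, 12.2 and 4.07 and overlapped.

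Of 9 entries in families that hypoxia regulates in vertebrates, 3 were among the 84, and they had a median of -0.16. Aja-miR-210-3p was the highest of them at 0.59 (SE 0.62, interval -0.81 to 1.98, limma adjusted p = 0.802). It was at 1293, 2116 and 489 in the DO4 group and at 1163, 438 and 778 in the DO8 group. The 2 highest libraries were from the DO4 group, yet DO4_3 was lower than DO8_1 and DO8_3, and a change of up to 3.94-fold upwards lay inside the interval. Aja-miR-200, the 18 nt form of the epithelial miRNA, was the lowest at -0.46.

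The echinoderm and hemichordate families had 13 of their 15 entries among the 84, 5 positive and 8 negative, with a median of -0.18. Aja-miR-2007-5p was the highest (0.43) and Aja-miR-2006-3p the lowest (-0.95, interval -2.02 to 0.11). The latter was at 291, 715 and 442 in the DO4 group and at 1180, 802 and 710 in the DO8 group, and DO4_2 exceeded the lowest DO8 library by a small margin only. Its other arm, Aja-miR-2006-5p, was at 12350, 9478 and 14335 against 21104, 18828 and 13040, which overlapped through DO4_3 and DO8_3. Aja-miR-2013-3p, with an interval of -0.48 to 0.65, was one of the entries with narrow limits. The 3 entries of miR-2008 and miR-31, families examined in skin ulceration of sea cucumbers, were all negative with all libraries (median -0.31), but without DO4_1 Aja-miR-2008 was at 0.12, Aja-miR-31a-5p at 0.03 and Aja-miR-2008-5p at -0.02. Aja-miR-2008 was at -0.31, Aja-miR-2008-5p at -0.31 and Aja-miR-31a-5p at -0.46.

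The 8 nervous system entries were positive in 3 cases and negative in 5, with a median of -0.20, from Aja-miR-153-1-p5 at -2.17 to Aja-miR-7-5p at 0.50. Aja-miR-153-1-p5 is on this list by its name only, as its sequence is largely a CT repeat. The 4 epithelial, ciliary and sensory entries had a median of -0.31. Their range ran from Aja-miR-34, known from ciliated cells of vertebrates, at -0.80 to the sensory miRNA Aja-miR-96-5p at 0.65. Aja-miR-34 was at 65.1, 350 and 142 against 252, 253 and 272, again with DO4_2 apart from the other DO4 libraries. Other families widespread among invertebrates had 10 of 12 entries negative and a median of -0.44, from Aja-miR-184-3p at -0.61 to Aja-miR-278-3p at 0.67. Aja-miR-184, the lower of the miR-184 entries, stood at 3.97, 13.6 and 5.70 against 15.8, 7.23 and 7.55, while Aja-miR-29b-3p kept an interval of -0.39 to 0.80. Aja-miR-375-3p, a miRNA of pancreatic islets in vertebrates and the single one of the 84 on the digestive tract list, was at 9374, 17328 and 21207 against 18282, 33278 and 19262 (-0.59, interval -1.36 to 0.18).

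The 12 entries whose sequences resemble fragments of other RNAs had 4 positive and 8 negative differences and a median of -0.54, from Aja-miR-7977 at -1.08 to Aja-miR-6236-3p at 0.97. Aja-miR-7977 was at 2.65, 9.55 and 0 in the DO4 group and at 7.17, 7.78 and 4.07 in the DO8 group. Aja-miR-2478b-3p was at 52.6, 260 and 60.1 against 123, 136 and 193, and Aja-miR-2478d at 0, 3.41 and 0 against 1.49, 1.67 and 2.90. For these 3 entries DO4_2 was the highest library of the 6. Of the 4 predicted entries, 2 were positive and 2 negative, from PC-3p-22583_90 at -0.51 to the third predicted miRNA at 2.47, with a median of 1.19. Of the 26 miRNAs that the study listed as changed by oxygen, a list chosen on these samples, 23 were among the 84 entries. Here limma called 0 of these 23 at an adjusted p under 0.05. That list pools the comparisons among all oxygen levels, severe hypoxia included, and the study describes no adjustment of its p values. The study also called changes between mild hypoxia and normoxic conditions. The count of 0 therefore does not test that list. Of the entries on it, Aja-miR-1a-3p, Aja-miR-71 (21 nt), Aja-miR-153-3p, Aja-miR-153-1-p5 and the third predicted miRNA did not overlap between the groups.

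At the edge of the rule stood entries that were listed in 3 libraries of a group with a smallest value near that of 2 or 3 reads. Aja-miR-2478a-5p (1.32, 1.70 and 2.22 against 0, 0 and 1.74) and Aja-miR-26a-5p (1.98, 1.36 and 54.1 against 0, 5.84 and 0) entered through the DO4 group. Aja-miR-6240-3p (0, 8.86 and 2.85 against 4.48, 1.39 and 6.68) and Aja-miR-9341-5p (2.31, 4.09 and 0 against 5.98, 2.5 and 1.45) entered through the DO8 group. Just outside it, 19 entries were listed in 2 libraries of a group, with means over the 6 libraries of 0.474 to 7.35 and a median of 1.39. The highest were Aja-miR-21-5p (0, 0 and 37.4 against 0, 5.28 and 1.45), PC-5p-33945_52 (32.4, 0 and 9.50 against 0 in every DO8 library) and Aja-miR-99-5p (0, 8.86 and 4.43 against 0, 5.0 and 3.48).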

How the data were processed

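Small RNA libraries (TruSeq) of 9 pools were deposited as 1 file per library with the name, sequence and value of each miRNA. Per the authors' methods, the deposited signal arose as follows: after trimming and filtering, reads of other RNA classes were removed, the rest was matched to animal miRNAs of miRBase 21.0 or to predicted hairpins, and each miRNA's reads were scaled by 1 factor per library. The source of the factor is not given in the sources used here, and the totals of values are higher than the formula in the methods can give. The processing notes of the submitters name CASAVA 1.5. Only 65.5% to 75.7% of the values of a DO4 or DO8 library were whole reads (within 0.02 of a read), since reads were shared between entries, so no test for counts was used. The value of 1 read, and from it the depth, was worked out from the smallest steps of each library; in DO8_1 none of the 3 predicted entries listed matched the read number in its name, so the value there was not checked in that way.

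Files were joined by name and sequence. Entries listed in all 3 libraries of any group (90) were fitted with limma 3.58.1 (R 4.3.3) on log2(value + 1), with 1 mean per group, all 9 libraries and variances with a trend; the contrast was DO4 minus DO8, adjusted after Benjamini and Hochberg, called under 0.05. The script was tested on simulated data. Shares, ratios and totals were set side by side with exact permutation tests, two-sided (scipy 1.17.1, numpy 2.4.6, pandas 2.3.3, Python 3.11.15). The rule for named entries took the 10 most abundant, every entry at an unadjusted p under 0.05 or without overlap, those of the study's list, the 5 with the narrowest intervals, those that set a list's range and those at the edge of the listing rule; a few further entries were named after their values were seen. Members and lists were chosen with earlier results of these data known. Alternatives were other added values (0.01, 10), no filter or a mean of at least 10, the 6 libraries alone, a replicate block, equal totals, clean reads as library size, median-ratio factors and leaving out each library.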

Additional observations from a re-analysis of the deposited data

Results flagged for a closer look

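Entries outside the 84 were not part of the comparison. Predicted ones were listed more often in each DO4 library than in any DO8 library, and known ones in DO4_3 only. Predicted entries outside the 84 numbered 36 in DO4_1, 7 in DO4_2 and 17 in DO4_3, against 0, 2 and 5 in the DO8 libraries. Their values summed to 422, 40.2 and 74.4 in the DO4 group and to 0, 5.56 and 16.3 in the DO8 group. Known entries outside the 84 numbered 62 in DO4_3, against 7, 19 and 16 in the DO8 libraries and 8 and 13 in the other DO4 libraries, and 47 of the 62 were listed in no other of the 6 libraries. The highest were Aja-miR-146a (46.2), Aja-miR-21-5p (37.4) and Aja-miR-14 (35.5). What brought these entries into the libraries was not tested.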

How the results depend on the processing

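In the fit over all 9 libraries, a change on the deposited scale could be bounded within 2-fold for 16 entries, all with means of at least 270.3. It could be so bounded for no entry with a mean under 100. These limits depend on the spread of the DO2 libraries as well as on that of the DO4 and DO8 pools. The count past the adjusted threshold of 0.05 was 0 to 2 when 1 library was left out (2 without DO2_1: Aja-miR-153-1-p5 and the third predicted miRNA) and 1 with 0.01 added in place of 1 (Aja-miR-153-1-p5, limma adjusted p = 0.000539); it was 0 under the other alternatives, with smallest adjusted p values up to 1. The seed families past the threshold were 0 to 2 with 1 library left out and 1 with 0.01 added. At an unadjusted p under 0.05 the count was 4 with 0.01 added, with the 6 libraries alone and with the replicate block, 3 with equal totals, with clean reads as library size and with equal totals without Aja-miR-10 (chosen after seeing the data), 7 without a filter, 0 with 10 added or a mean of at least 10, and 1 to 11 with 1 library left out (11 without DO4_2). Entries that did not overlap numbered 11 with equal totals without Aja-miR-10 and 8 to 34 with 1 library left out. The median log2 difference was -0.26 with equal totals, -0.32 with equal totals without Aja-miR-10, and -0.15 to 0.12 with 1 library left out. Entries with an interval between -1 and 1 numbered 26 with 10 added, 8 with clean reads and 11 to 22 with 1 library left out. Shares without overlap numbered 1 with Aja-miR-10 out of the total and 0 to 3 with 1 library left out; ratios numbered 1 to 11. Whether the replicate numbers pair the libraries, for instance by tank, is not given in the sources used here. Deviations of same-numbered libraries correlated at 0.094, -0.371 and -0.049 over the 84 entries, and those of differently numbered libraries at -0.471 to 0.429. Such correlations cannot decide whether the libraries were paired. With the replicate block, limma called 0 entries (smallest adjusted p = 0.825). Of 30 named entries followed through the settings, 19 kept the sign of their difference in every setting in which they were fitted, and 11 changed it in at least 1 of the 19 settings. The 7 without overlap are among those that kept it. They were picked for that separation, so leaving out a library or changing the added value could not turn their sign. Their constant sign therefore lends no support to a difference. Aja-miR-153-1-p5, Aja-miR-7977 and Aja-miR-2478d were not tested with a mean of at least 10.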
